A study of Mus musculus with 14 samples.

Results

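Transcript levels of 3 Lmo2-independent and 3 evolving mouse T-cell acute lymphoblastic leukaemias (T-ALL), all from mice without doxycycline (Dox), were compared to ask which genes separate the classes before any Dox is given. The libraries were chosen by their labels alone, 6 of the 14 in the series: VTL-33, VTL-44 and VTL-81 are labelled independent, and VTL-21, VTL-25 and VTL-153 evolving. The series also holds 2 dependent leukaemias without Dox (VTL-19 and VTL-24), which entered the same fit and whose levels are given beside the results, and libraries of these 6 independent and evolving leukaemias grown in hosts whose food held Dox at 600 mg/kg. All were VTL leukaemias, induced in mice by the oncogene Lmo2. Values are listed in 1 order throughout, VTL-33, VTL-44, VTL-81 for the independent class and VTL-153, VTL-25, VTL-21 for the evolving class. Donor thymocytes had first been injected into irradiated C57BL/6-Ly5.1;FVB F1 mice, and frozen leukaemia cells were then thawed and passed into C57BL/6-Rag1-/- recipients. Cells positive for both CD45.1 and CD45.2 were sorted from the spleens of these recipients, so that each library stands for 1 transplanted leukaemia. Rag1-deficient hosts lack mature B and T cells of their own and keep myeloid, NK, erythroid and stromal cells. The promoter that drives the transgene, the way Dox acts on it, and the age and sex of the animals were not given in the sources used here.

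Lmo2 is a LIM-domain protein that does not bind DNA itself. It bridges Ldb1 to basic helix-loop-helix factors such as Tal1 and Lyl1 and to GATA factors, and it is active in haematopoietic stem and progenitor cells and normally silenced as thymocytes mature. In T-ALL its expression keeps thymocytes in a self-renewing, progenitor-like state. Ikaros, the zinc-finger protein encoded by Ikzf1 and named in the series title, represses genes together with chromatin remodelling complexes and is a tumour suppressor of the lymphoid lineage.

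Some of the 6 libraries stood apart from their class or matched each other closely. The counts of the 6 summed to between 19219722 and 24048281 per library. VTL-153 and VTL-25 had a correlation of 0.973 across 12421 genes on the log2 CPM scale, against 0.914 and 0.929 for their pairs with VTL-21 and 0.869 to 0.919 among the independent libraries. Genes are not independent replicates. CPM are each library's counts put on 1 common total, scaled here by the normalisation factors of the libraries. Only 3 genes stood above 20 CPM in one of VTL-153 and VTL-25 and below 0.5 CPM in the other, against 42 and 31 for the pairs with VTL-21. Their chi-square of 52.9 per gene over 11973 genes was the lowest of all pairs without Dox, though above counting noise, so they are not repeat deposits of 1 library. Whether they share an origin was not tested. They were kept apart because the labels number them as separate leukaemias, and results are also given with them summed. VTL-44 carried the most RNA of myeloid marker genes and VTL-33 the most Lmo2 of its class, as described with those results. The median SD of a gene across libraries was 0.34 log2 units in the independent and 0.22 in the evolving class. Mitochondrially encoded genes held 4.25%, 4.92% and 1.62% of the counts in the independent libraries, and 1.90% to 2.11% in the evolving libraries. The T-lineage markers Lck and Cd3e were present in all 6 libraries. Lck, the proximal kinase of the T cell receptor, stood at 1080 to 1331 CPM in the independent and 1122 to 1436 CPM in the evolving libraries, and the receptor component Cd3e at 194 to 486 and 273 to 305 CPM. Not every T-lineage gene was: the receptor beta constant segment Trbc1 had 0.956, 673 and 492 CPM in the independent and 1.05, 5.45 and 0.539 CPM in the evolving libraries. The other beta constant segment, Trbc2, had at least 499 and 441 CPM.

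Lmo2 itself (ENSMUSG00000032698) did not separate the classes. It stood at 600 CPM in VTL-33, 9.28 CPM in VTL-44 and 27.2 CPM in VTL-81, and at 708, 515 and 303 CPM in the evolving libraries. VTL-33 lay within the evolving range, and the other two independent libraries lay below every evolving one. The dependent VTL-19 and VTL-24 had 120 and 142 CPM. The log2 difference, independent minus evolving, was −1.26 (SE 1.31, adjusted p = 0.692 by edgeR), and it was −4.80 without VTL-33, with an adjusted p of 0.10. Limma voom, which fits log values, put it at −3.13 (adjusted p = 0.323). Differences below have the same direction throughout, so that a negative value is lower in the independent class.

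Among the partners of Lmo2, the helix-loop-helix factor Lyl1 separated the libraries of the classes. Lyl1 stood at 3.30, 10.6 and 2.41 CPM in the independent libraries against 52.0, 105 and 102 CPM in the evolving libraries, with no overlap, including VTL-33 with its high Lmo2. Its log2 difference of −3.99 (SE 0.64) had an adjusted p of 0.0607 and did not pass the threshold of 0.05. Hhex, a homeobox factor of early progenitors, had 0.478, 3.13 and 0.819 CPM against 24.8, 69.0 and 39.3 CPM. Its log2 difference was −4.92 (SE 0.79, adjusted p = 0.0607). Erg, an ETS factor of stem cells, had 0.0434, 2.93 and 0.216 CPM against 18.7, 47.4 and 39.1 CPM (log2 difference −5.06, SE 1.20, adjusted p = 0.118). In each of these 3 genes both dependent libraries lay on the evolving side: 59.6 and 103 CPM of Lyl1, 38.4 and 64.3 CPM of Hhex, and 57.5 and 60.9 CPM of Erg. Lyl1 and Hhex passed by DESeq2, which called far more genes, and without VTL-44 (adjusted p = 0.0207 and 0.0245 by edgeR). By limma voom over all 14 libraries, with the tumour as a replicate block, Lyl1 passed and Hhex did not (adjusted p = 0.0306 and 0.0661).

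For the core of the complex the values of the classes lay closer together. Ldb1, the dimerising adaptor, stood at 218 to 296 CPM in the independent and 227 to 277 CPM in the evolving libraries (log2 difference −0.03, SE 0.18). The E proteins Tcf12 and Tcf3 differed by 0.14 (SE 0.15) and −0.40 (SE 0.12, adjusted p = 0.190), and Gata3 by 0.26 (SE 0.42). Tal1 and Gata1 were at most 1.59 and 5.69 CPM in these libraries. Of the 19 measured genes in the list of the Lmo2 complex and its progenitor partners, 0 passed (5 by DESeq2 and 3 without VTL-44), 6 were lower and 1 was higher without overlap, beside 12.1% and 11.4% of all 12348 tested genes. The median log2 difference was −0.40, beside 0.02 over all genes.

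Ikzf1 (ENSMUSG00000018654) was abundant in both classes, at 1472, 979 and 1191 CPM in the independent libraries and 1421, 952 and 938 CPM in the evolving libraries. The groups overlapped, and the log2 difference was 0.14 (SE 0.26, adjusted p = 0.844). It turned to −0.02 without VTL-33. Counts per gene do not show mutations or isoforms. The gene for Aiolos, Ikzf3, stood at 676, 289 and 697 CPM against 191, 70.0 and 50.1 CPM, without overlap, and its log2 difference of 2.42 (SE 0.64) had an adjusted p of 0.147. Helios (Ikzf2) and Pegasus (Ikzf5) differed by 0.31 (SE 0.49) and −0.05 (SE 0.13), and Ikzf4 by 1.53 (SE 0.86), with groups that overlapped in all 3. The sign for Ikzf2 and Ikzf5 changed when 1 library was left out (−0.30 without VTL-33 and 0.03 without VTL-25). The levels of these genes are in the plot of Lmo2 partners and the Ikaros family.

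**Figure D1:**
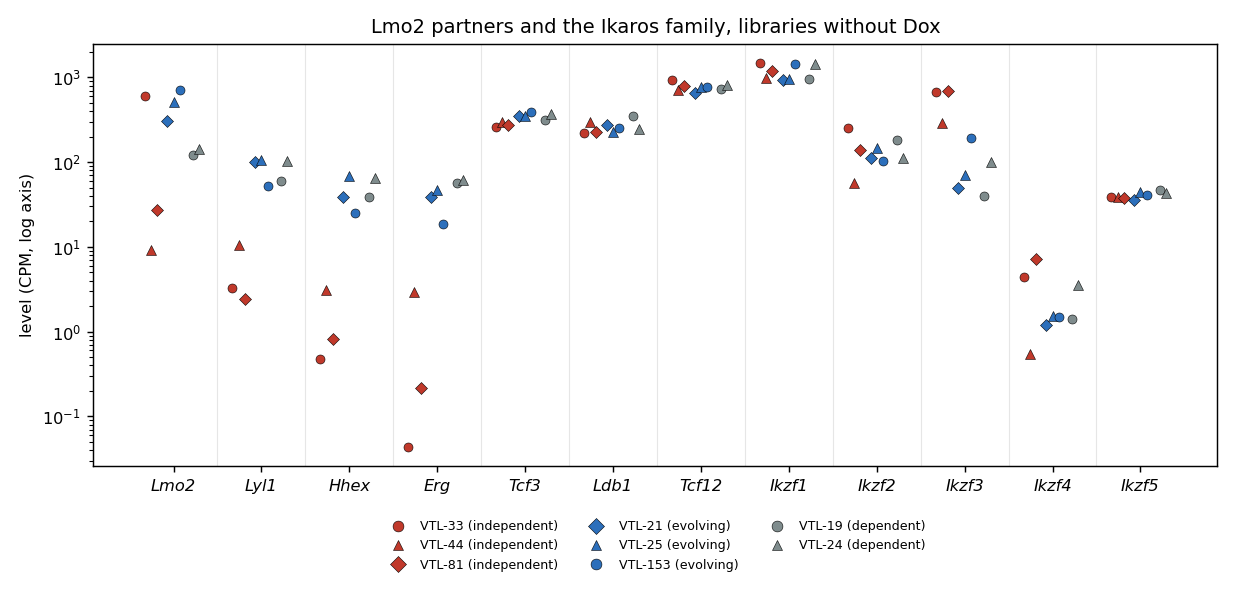
Level of each gene in the 8 libraries without Dox (CPM, log axis), with 1 point per library, colour for the class and shape for the leukaemia. Lyl1, Hhex and Erg show no overlap between independent (at most 10.6 CPM) and evolving libraries (at least 18.7 CPM), whereas Lmo2, Ldb1, Tcf12 and Ikzf1 overlap.

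Over the whole table, 32 of 12348 genes passed edgeR's quasi-likelihood test at an adjusted p below 0.05, which is 0.259% of the genes tested. Of these 11 were higher in the independent class (0.0891%) and 21 lower (0.17%). Of the 32, 15 differed at least 8-fold, 11 of them lower and 4 higher in the independent class, 13 differed by under 2 log2 units, and 4 lay between. All 32 had libraries that did not overlap between the classes. Over all genes, 11.4% were higher and 12.1% lower without overlap, and 2026 genes had an unadjusted p below 0.05. A difference of at least 8-fold was seen in 544 genes, of which 15 passed. On the log2 CPM scale the dependent libraries both lay nearer the evolving mean than the independent one in 29 of the 32 genes, and nearer the independent mean in 3, Mtx3, Zbed3 and the receptor segment Trbv13-1. On the CPM scale these numbers were 25 and 4, with Slit1 added to the latter, and the 2 libraries were split in Fat4, Osbpl1a and Ergic1. The same share over all tested genes was not counted. Across 12421 genes the dependent libraries also correlated more with the evolving libraries (0.890 to 0.941) than with the independent ones (0.839 to 0.885). Closeness to the evolving class is thus not particular to the called genes.

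The number of genes called moved with the libraries and the tool. It was 3 without VTL-153, 3 without VTL-25, 18 without VTL-21, 17 without VTL-33, 16 without VTL-81 and 144 without VTL-44, and 3, 3, 12, 10, 12 and 30 of the 32 passed in these fits. With VTL-153 and VTL-25 summed as 1 sample the same 3 genes passed as without VTL-153 or VTL-25 and in every one of the 6 fits: Armcx4, Sstr2 and Npc1. DESeq2 called 1068 genes, including all 32, and limma voom 7, all among the 32. Separate leukaemia numbers mark the replicates, and where these do not stand for separate animals the p-values measure only the spread between these libraries. Fewer cells of a type and less RNA per cell cannot be told apart in such bulk samples.

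**Figure D2:**
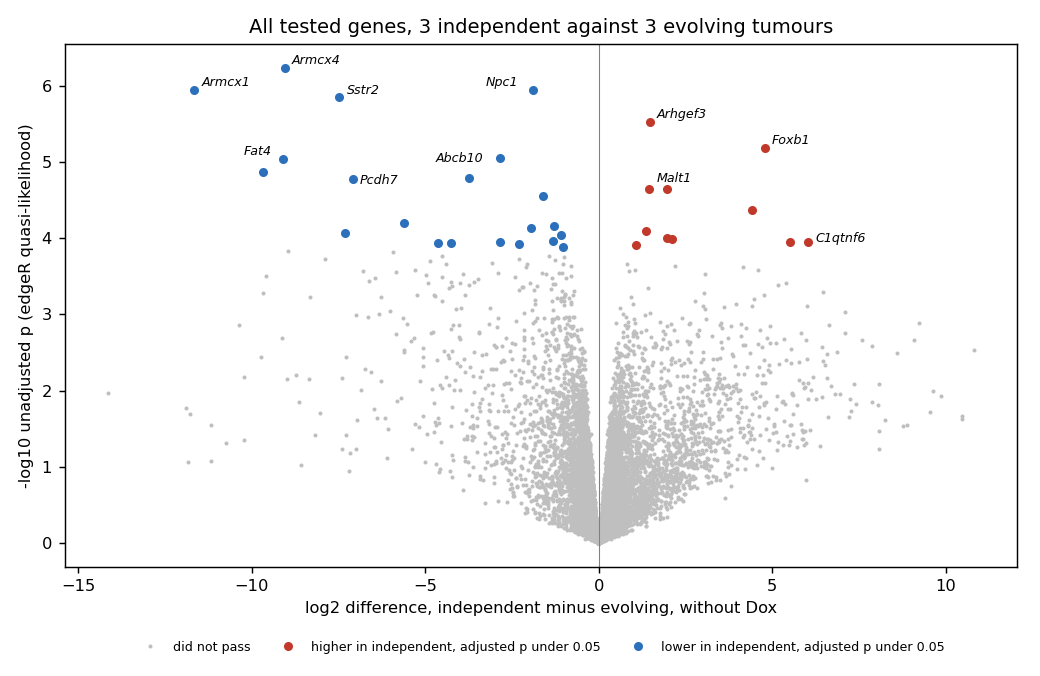
Log2 difference of each of the 12348 tested genes (x axis) against −log10 of its unadjusted p (y axis), with coloured points for the 32 genes that passed. The 21 lower genes are blue and the 11 higher genes red, up to 6.03 in C1qtnf6, and the leftmost coloured point, Armcx1, has 0 counts in the independent class, so its place on the x axis is no measured size.

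The neighbouring genes Armcx1 and Armcx4 were at or near 0 in the independent class and passed the test. The Armcx genes are X-linked genes for armadillo-repeat proteins, of which Armcx1 and Armcx3 encode proteins of the outer mitochondrial membrane that take part in mitochondrial transport in neurons. Armcx1 (ENSMUSG00000033460, chromosome X, 134717963 to 134721917, plus strand, mm10) had 0 counts in all 3 independent libraries and 18.1, 16.9 and 20.4 CPM in the evolving libraries. Against a floor of 3 counts over the independent class it was at least 407-fold higher in the evolving class (adjusted p = 0.00434 by edgeR). Armcx4 (134686519 to 134696757) stood at 0.0434, 0.248 and 0.0431 CPM in the independent libraries and at 53.7, 60.5 and 64.9 CPM in the evolving libraries. Its log2 difference was −9.05 (SE 0.56, adjusted p = 0.00434). The dependent VTL-19 and VTL-24 lay with the evolving class in both genes, at 26.6 and 19.5 CPM of Armcx1 and 61.0 and 107 CPM of Armcx4.

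The other Armcx genes of the cluster had the same order without passing. Armcx2 stood at 0.0434, 3.92 and 0.129 CPM in the independent libraries and at 29.8 to 34.1 CPM in the evolving ones (log2 difference −4.57, SE 1.27, adjusted p = 0.161). Armcx3 had at most 0.794 CPM against at least 4.35 CPM, and Armcx6 at most 0.546 CPM against at least 2.65 CPM. VTL-44 had the highest independent value in each of these 3 genes. Armcx5, which lies outside the cluster at 135742733 to 135747322, overlapped between the classes at 8.04 to 11.5 CPM against 6.92 to 12.5 CPM (log2 difference 0.15, SE 0.30; −0.01 without VTL-21). Armcx4, Armcx1, Armcx6, Armcx3 and Armcx2 lie next to each other within 123 kb of chromosome X, from 134686519 to 134809221. Of the 10 other tested genes within 500 kb of that cluster 0 passed, and their log2 differences ran from −0.42 to 1.02. The nearest on one side, Hnrnph2, averaged 91.2 and 105 CPM in the independent and evolving classes, and the nearest on the other, Zmat1, 9.25 and 11.8 CPM.

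Of the 390 X-linked genes tested, 3 passed, Armcx1, Armcx4 and Arhgap6, and all were lower in the independent class. Over all 12348 tested genes 32 passed (0.259%), 21 of them lower, and Armcx1 and Armcx4 are neighbours in 1 cluster. Xist, the RNA of the inactive X chromosome, differed between libraries of 1 class, with 4.34 CPM in VTL-33, 1909 CPM in VTL-44 and 8.80 CPM in VTL-81, and 2697, 2440 and 759 CPM in the evolving libraries. The Y-linked gene Ddx3y stood at 0, 7.94 and 95.4 CPM against at most 1.05 CPM. Xist was thus high in every evolving library and low in VTL-33 and VTL-81, so that its level and the class largely went together. Armcx1 and Armcx4 were at or near 0 in VTL-33, VTL-44 and VTL-81. The part of sex or of the state of the X chromosome in these differences was not tested. With Dox the 3 evolving leukaemias had 0, 0 and 0.0491 CPM of Armcx1 and 0, 0.446 and 0.295 CPM of Armcx4, levels like those of the independent class. These 3 libraries carry the same leukaemia numbers as the evolving libraries without Dox, but their T cell receptor beta segments differed in part. In VTL-25 the leading segment was Trbv24 without Dox (238 CPM) and Trbv5 with Dox (270 CPM). In VTL-21 Trbv24 led in both, and Trbv13-1 had 39.6 CPM without and 0.147 CPM with Dox. Whether the same cells were sampled without and with Dox was not tested.

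Promoters of the 2 called genes with the largest fitted log2 difference in each direction, receptor segments aside, are shown so that the regions at these starts can be read, as the window around the annotated start (RefSeq, GRCm38.p6), 5′ to 3′ on the gene's strand. Armcx1 is at chrX:134717688-134717987 (plus strand), Fat4 at chr3:38886690-38886989 (plus strand), C1qtnf6 at chr15:78529602-78529901 (minus strand) and Arhgap21 at chr2:20967672-20967971 (minus strand). Capitals mark 3 motifs searched on both strands: the E-box CAGATG, which helix-loop-helix factors bind, the sequence AGATAA for the GATA family, and the Ikaros core TGGGAA.
Armcx1: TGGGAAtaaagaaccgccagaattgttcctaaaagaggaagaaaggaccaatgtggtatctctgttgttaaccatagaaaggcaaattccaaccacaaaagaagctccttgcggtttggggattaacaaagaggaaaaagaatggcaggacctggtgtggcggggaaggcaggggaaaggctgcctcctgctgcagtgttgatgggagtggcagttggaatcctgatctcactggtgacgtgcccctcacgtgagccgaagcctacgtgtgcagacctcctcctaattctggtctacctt
Fat4: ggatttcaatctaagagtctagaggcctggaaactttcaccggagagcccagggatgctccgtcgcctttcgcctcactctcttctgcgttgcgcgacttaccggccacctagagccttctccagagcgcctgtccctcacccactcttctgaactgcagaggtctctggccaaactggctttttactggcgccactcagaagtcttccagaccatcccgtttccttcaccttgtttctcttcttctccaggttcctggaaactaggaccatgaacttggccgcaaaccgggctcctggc
C1qtnf6: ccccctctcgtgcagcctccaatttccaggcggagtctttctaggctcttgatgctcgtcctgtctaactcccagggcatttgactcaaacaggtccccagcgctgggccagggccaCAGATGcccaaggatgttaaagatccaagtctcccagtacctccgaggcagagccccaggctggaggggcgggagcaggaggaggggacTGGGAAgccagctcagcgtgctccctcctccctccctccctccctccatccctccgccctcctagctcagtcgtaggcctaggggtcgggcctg
Arhgap21: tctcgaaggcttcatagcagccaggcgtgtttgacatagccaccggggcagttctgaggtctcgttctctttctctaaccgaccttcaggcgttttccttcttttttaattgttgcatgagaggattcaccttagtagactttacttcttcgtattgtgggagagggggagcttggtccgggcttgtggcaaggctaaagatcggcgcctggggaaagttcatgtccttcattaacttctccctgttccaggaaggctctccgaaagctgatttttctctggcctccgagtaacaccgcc
Armcx1 held 1 TGGGAA, C1qtnf6 held 1 CAGATG and 1 TGGGAA, and the windows of Fat4 and Arhgap21 held none of the 3. Over the 32851 promoters of the reference table, 17.2% held CAGATG, 11.2% AGATAA and 25.6% TGGGAA. Of the 32 genes that passed 21 had a promoter in that table, of which 3 held CAGATG, 0 AGATAA and 5 TGGGAA. A match is a description of letters and no evidence of binding.

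Fat4, Pcdh7 and Sstr2, which encode surface proteins, were at most 0.397 CPM in the independent and at least 14.7 CPM in the evolving libraries. Fat4 (ENSMUSG00000046743), a giant atypical cadherin that signals between neighbouring cells, stood at 0.130, 0.0496 and 0 CPM in the independent libraries and at 43.9, 28.8 and 35.1 CPM in the evolving libraries. It rested on 4 counts in the independent class, and its log2 difference was −9.09 (SE 0.84, adjusted p = 0.0141). Both dependent libraries expressed it, at 24.9 and 8.51 CPM. Pcdh7, a protocadherin, had 0.261, 0.0993 and 0.0431 CPM against 15.1, 27.5 and 14.7 CPM (log2 difference −7.08, SE 0.71, adjusted p = 0.0187), and 35.6 and 96.4 CPM in the dependent libraries. Pcdh7 shares 21.1% of its exonic bases with the opposite-strand gene 4932441J04Rik, whose reads cannot be told apart from its own where counting did not use strand.

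Sstr2, a somatostatin receptor coupled to inhibitory G proteins, was 1 of the 3 genes that passed in every fit with a library left out. It stood at 0.391, 0.397 and 0.259 CPM in the independent libraries and at 32.8, 98.0 and 57.7 CPM in the evolving libraries. The evolving class was 188-fold higher (log2 difference −7.47, SE 0.53, adjusted p = 0.00434), and the dependent libraries had 70.4 and 50.4 CPM. Slit1, a secreted guidance ligand of Robo receptors, fell from 6.85, 7.73 and 6.47 CPM in the evolving to 1.30, 0.844 and 0.776 CPM in the independent libraries, a log2 difference of −2.84 (SE 0.38, adjusted p = 0.0488). P2rx7, an ATP-gated ion channel of lymphocytes and macrophages, was abundant in both classes and fell to 45.7, 56.1 and 47.0 CPM from 283, 244 and 206 CPM (log2 difference −2.30, SE 0.31, adjusted p = 0.0488). Of the 17 measured genes in the list for cell adhesion and axon guidance, Pcdh7 was the 1 that passed, beside 0.259% of all tested genes. In this list 3 genes were lower and 2 higher without overlap (12.1% and 11.4% of all tested genes), and the median log2 difference was 0.07.

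Sytl2, Arhgap6 and Tespa1 were also lower in the independent class. Sytl2, a synaptotagmin-like protein that tethers secretory vesicles through Rab27, had 12.2, 6.35 and 2.20 CPM in the independent libraries against 173, 223 and 122 CPM in the evolving libraries (log2 difference −4.64, SE 0.62, adjusted p = 0.0488). Arhgap6, an X-linked gene for a GTPase-activating protein, had 0.0869, 0.348 and 0 CPM against 16.3, 25.2 and 27.6 CPM (log2 difference −7.31, SE 0.94, adjusted p = 0.0488). It shares 11.0% of its exonic bases with Hccs on the opposite strand. Tespa1, an adaptor of thymocytes that takes part in T cell receptor signalling during positive selection, stood at 74.2, 106 and 70.3 CPM against 224, 199 and 206 CPM. Its pooled evolving level was 2.53-fold higher (log2 difference −1.33, SE 0.18, adjusted p = 0.0488).

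Npc1, Osbpl1a and Atp13a2, which encode proteins of endosomes and lysosomes, were lower in the independent class. Npc1 (ENSMUSG00000024413), the lysosomal membrane protein that exports cholesterol, stood at 44.1, 49.9 and 45.4 CPM in the independent libraries and at 152, 195 and 174 CPM in the evolving libraries. Its pooled evolving level was 3.78-fold higher (log2 difference −1.90, SE 0.13, adjusted p = 0.00434). Npc1 was the 1 gene of the 32 whose adjusted p stayed under 0.05 in each of the 18 alternative fits, with 0.0351 the highest. Dependent VTL-19 and VTL-24 had 127 and 123 CPM. Osbpl1a, an oxysterol-binding protein of late endosomes, had 0.608, 1.39 and 0.561 CPM against 40.3, 51.2 and 32.4 CPM (log2 difference −5.60, SE 0.69, adjusted p = 0.0488). Osbpl1a shares 11.0% of its exonic bases with AC102055.1 on the opposite strand. Atp13a2, a lysosomal polyamine exporter, had 94.5, 117 and 105 CPM against 291, 319 and 358 CPM (log2 difference −1.61, SE 0.18, adjusted p = 0.0249).

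Abcb10, a transporter of the inner mitochondrial membrane that supports haem synthesis, stood at 8.43, 14.4 and 8.67 CPM against 88.0, 73.8 and 63.2 CPM. The log2 difference was −2.83 (SE 0.26, adjusted p = 0.0141), and the dependent libraries had 67.1 and 78.6 CPM. Abcb10 shares 10.3% of its exonic bases with Gm45890 on the opposite strand. Adck1, a mitochondrial kinase-like protein, had 15.1 to 19.6 CPM against 38.5 to 47.5 CPM, and Enpp4, a membrane phosphodiesterase, 12.7 to 17.5 CPM against 42.5 to 64.9 CPM. Ergic1, a protein of the compartment between endoplasmic reticulum and Golgi, had 103 to 118 CPM against 209 to 269 CPM. These 3 each had an adjusted p of 0.0488. The remaining lower genes were Ccdc112, which encodes a coiled-coil protein, at 0.0862 to 0.248 CPM against 2.5 to 3.37 CPM, and the non-coding RNA 1500035N22Rik at 0.447 to 0.819 CPM against 7.59 to 9.98 CPM.

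The list for cholesterol synthesis and uptake held mostly negative values, and Npc1 and Osbpl1a are not among its members. Of its 19 measured genes 0 passed, 17 had a negative log2 difference, 7 were lower without overlap and 1 was higher without overlap (12.1% and 11.4% of all tested genes). The median was −0.85, beside 0.02 over all genes, of which 6518 of 12348 had a positive log2 difference. Dhcr7, which makes cholesterol in the last step, stood at 42.4, 54.2 and 47.6 CPM against 73.8, 97.4 and 88.3 CPM (log2 difference −0.85, SE 0.17, adjusted p = 0.0897).

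Cdkn2c, an inhibitor of the cyclin-dependent kinases that phosphorylate Rb, was the 1 of 6 measured cell cycle inhibitors that passed. Over all tested genes 0.259% passed. Of the 6, 3 were lower and 1 was higher without overlap, beside 12.1% and 11.4% of all tested genes. It stood at 77.5, 79.2 and 72.6 CPM in the independent libraries and at 157, 181 and 131 CPM in the evolving libraries (log2 difference −1.03, SE 0.14, adjusted p = 0.0496). Cdkn2a, which encodes the Ink4a and Arf tumour suppressors, stood at 3.21, 19.0 and 4.53 CPM in the independent libraries and at 190, 182 and 117 CPM in the evolving ones. Its log2 difference of −4.20 (SE 0.83) did not pass, with an adjusted p of 0.0911. In contrast with most genes above, the dependent VTL-19 and VTL-24 were also low in Cdkn2a, at 5.41 and 1.26 CPM. Of 25 measured T-ALL tumour suppressors, which include Cdkn2a and Ikzf1, 0 passed, 6 were lower and 2 higher without overlap (12.1% and 11.4% of all tested genes), and the median was −0.15.

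Among the genes higher in the independent class, Foxb1 (ENSMUSG00000059246), a forkhead factor of the developing brain, was low in every evolving library. It stood at 21.6, 23.4 and 28.2 CPM in the independent libraries and at 1.05, 0.962 and 0.629 CPM in the evolving libraries. The pooled independent level was 27.9-fold higher (log2 difference 4.79, SE 0.42, adjusted p = 0.0133), and the dependent libraries had 0.158 and 0.0468 CPM. The non-coding RNA B230323A14Rik, which overlaps Foxb1 on the opposite strand and shares 14.3% of its exonic bases with it, was higher too, at 8.82, 8.24 and 8.36 CPM against 0.50, 0.481 and 0.180 CPM (log2 difference 4.43, SE 0.51, adjusted p = 0.0349). Counts of this pair are uncertain where reads overlap. With Dox the evolving leukaemias had 22.1, 39.9 and 10.4 CPM of Foxb1, of which 1 lay within, 1 above and 1 below the independent range.

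Malt1, Arhgef3 and Arhgap21 were higher in the independent class as well. Malt1, the paracaspase that links the T cell receptor to NF-kB, stood at 47.1, 55.5 and 45.7 CPM in the independent libraries and at 17.6, 20.2 and 16.4 CPM in the evolving libraries. The pooled independent level was 2.71-fold higher (log2 difference 1.45, SE 0.15, adjusted p = 0.0214), and the dependent libraries had 19.8 and 18.1 CPM. Malt1 was the 1 of 20 measured genes of T cell receptor signalling that passed, beside 0.259% of all tested genes. In that list 2 genes were higher and 1 was lower without overlap (11.4% and 12.1% of all tested genes), and the median was 0.13. Arhgef3, a guanine nucleotide exchange factor, had 167, 136 and 147 CPM against 54.5, 53.2 and 54.3 CPM, with 3 nearly equal evolving libraries (log2 difference 1.47, SE 0.12, adjusted p = 0.00727). Arhgap21, which encodes a GTPase-activating protein, had 24.8, 15.2 and 69.6 CPM against 0.600, 0.922 and 0.854 CPM (log2 difference 5.52, SE 0.74, adjusted p = 0.0488).

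Elk3, Bcl9l, Timp2 and C1qtnf6 were higher too. Elk3, an ETS factor, had 46.4 to 51.3 CPM against 20.5 to 25.8 CPM, and Bcl9l, a coactivator of beta-catenin, 44.9 to 50.1 CPM against 16.2 to 22.3 CPM. Their log2 differences were 1.06 (SE 0.14) and 1.35 (SE 0.17), each with an adjusted p of 0.0488. Timp2, an inhibitor of matrix metalloproteinases, had 155, 142 and 83.2 CPM in the independent libraries against 34.2, 24.5 and 29.7 CPM (log2 difference 2.11, SE 0.28, adjusted p = 0.0488). C1qtnf6, a secreted protein of the C1q and TNF-related family, had 20.6, 9.83 and 61.6 CPM against 0.400, 0.321 and 0.674 CPM (log2 difference 6.03, SE 0.81, adjusted p = 0.0488). The summed level of 6 measured stromal and endothelial markers also separated the classes, at 263, 513 and 635 CPM in the independent libraries and 157 to 184 CPM in the evolving libraries. Of these 6 markers 2 were higher without overlap, beside 11.4% of all tested genes, and 0 passed. Col1a2, a collagen gene among them, followed the order of C1qtnf6, at 19.5, 10.1 and 117 CPM against at most 0.150 CPM. Whether stromal cells, which lack CD45, were left after the sort for CD45.1 and CD45.2 was not tested. Nor was the part of stromal RNA in the results for Timp2 and C1qtnf6.

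Mtx3, a metaxin of the mitochondrial import machinery, and Zbed3, a zinc-finger protein that binds Axin, were higher in the independent than in the evolving class, and the dependent libraries lay on the independent side. Mtx3 stood at 26.9, 25.2 and 26.6 CPM in the independent libraries, at 5.80, 5.89 and 8.27 CPM in the evolving libraries, and at 28.1 and 23.5 CPM in the dependent VTL-19 and VTL-24. Its log2 difference, independent minus evolving, was 1.98 (SE 0.21, adjusted p = 0.0214). Zbed3 had 39.8, 29.9 and 27.3 CPM, 9.90, 6.97 and 8.09 CPM, and 21.7 and 32.96 CPM in the same order (log2 difference 1.96, SE 0.26, adjusted p = 0.0488). The plot of all genes that differed shows these 2 as the exceptions among the protein-coding genes.

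**Figure D3:**
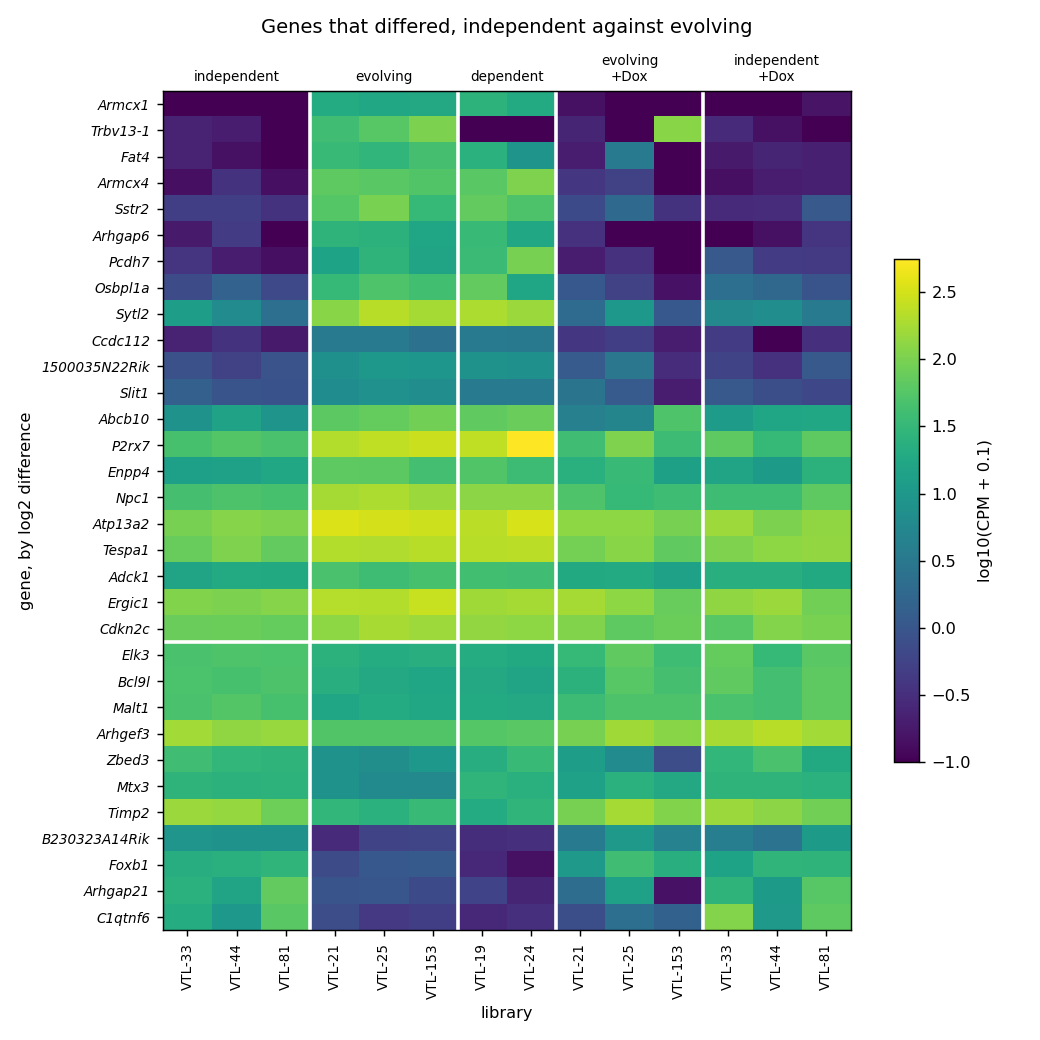
Level of the 32 genes in all 14 libraries as log10 of CPM plus 0.1, with genes ordered by log2 difference and libraries grouped by class and Dox. On the log2 CPM scale both dependent libraries are nearer the evolving mean in 29 genes and nearer the independent mean in Trbv13-1, Zbed3 and Mtx3. The same share over all tested genes was not counted.

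The T cell receptor beta V segments with the highest levels were partly shared by the evolving leukaemias. Counts per segment do not show the rearranged junction, so a shared segment does not show a shared clone. Trbv24, the segment they shared most, is annotated as a V pseudogene. Trbv24 led and Trbv13-1 came next in all 3, with 366 and 101.1 CPM in VTL-153, 238 and 59.6 CPM in VTL-25, and 242 and 39.6 CPM in VTL-21. In the independent VTL-33 Trbv24 led as well, with 326 CPM, and Trbv13-2 came next with 48.0 CPM. VTL-44 was led by Trbv19 with 840 CPM and VTL-81 by Trbv2 with 1229 CPM. The table holds 12 Trbv segments. Trbv13-1 was among the 32 genes, with at most 0.130 CPM in the independent class (log2 difference −9.68, SE 0.80, adjusted p = 0.0184), and it was at 0 in both dependent libraries. The constant segment Trdc of the delta chain had 0 counts in all 3 independent libraries and 166, 112 and 32.4 CPM in the evolving ones, at least 2254-fold higher against a floor of 3 counts over the class, but it did not pass (adjusted p = 0.175). Leaving receptor and immunoglobulin segments out before normalisation left 31 genes called, all among the 32.

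Progenitor genes had a negative median, and 0 of them passed. Of the 14 measured genes for immature thymocytes and progenitors, 7 were lower and 0 were higher without overlap, against the 12.1% and 11.4% of all genes, and the median log2 difference was −2.36. Their summed level was 493, 665 and 270 CPM in the independent libraries and 2025, 2517 and 1868 CPM in the evolving libraries, with most of the evolving sums from Il2ra, the alpha chain of the interleukin-2 receptor, named here for that reason after its values were seen. Il2ra stood at 140, 462 and 1.94 CPM against 1498, 1488 and 955 CPM (log2 difference −2.70, SE 1.34, adjusted p = 0.374). Dependent libraries had a summed level of 2779 and 2457 CPM, and the evolving leukaemias with Dox 296 to 699 CPM.

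Transcription factors of the T lineage did not share a direction, with 13 of 20 measured genes positive and a median of 0.09. Myb, a factor of proliferating thymocytes and a T-ALL oncogene, stood at 557, 474 and 455 CPM in the independent libraries and at 871, 1084 and 1034 CPM in the evolving ones, a log2 difference of −1.01 (SE 0.14) with an adjusted p of 0.0579. Runx3, a factor of the CD8 lineage, had 18.5, 24.3 and 7.80 CPM against 98.2, 87.1 and 78.0 CPM (log2 difference −2.38, SE 0.47, adjusted p = 0.0909). The inhibitors of E proteins had positive values that did not pass: Id2 had 44.6, 82.2 and 17.8 CPM against 11.4, 7.81 and 5.66 CPM (log2 difference 2.54, SE 0.55, adjusted p = 0.101), and Id3 82.8, 9.68 and 142 CPM against 5.60 to 7.91 CPM (log2 difference 3.49, SE 0.94, adjusted p = 0.151).

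Cytokine and costimulatory pathways held values of both signs, and 0 of their members passed. Stat5a and Stat3, which carry signals of cytokine receptors, had log2 differences of −1.08 (SE 0.19) and −0.80 (SE 0.14), each with an adjusted p of 0.0685. Il2rb, the beta chain of the interleukin-2 and interleukin-15 receptors, had 36.2, 9.63 and 22.2 CPM in the independent and at most 1.96 CPM in the evolving libraries (log2 difference 4.53, SE 1.32, adjusted p = 0.172). Cd28, the main costimulatory receptor, differed by 1.43 (SE 0.36, adjusted p = 0.135), and Cd27, a costimulatory receptor of the TNF receptor family, by −0.98 (SE 0.20, adjusted p = 0.0922). Among chromatin regulators, with a median of −0.22 over 28 genes, Mta3 of the NuRD complex had 118, 128 and 60.2 CPM against 367, 530 and 373 CPM (log2 difference −2.05, SE 0.30, adjusted p = 0.0579). The histone demethylase Kdm5b had 1.43, 7.10 and 1.29 CPM against 70.4, 47.6 and 64.9 CPM (log2 difference −4.22, SE 0.69, adjusted p = 0.0616).

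Interferon-inducible genes had a negative log2 difference in 28 of 32 measured members, with 0 passing, 6 lower and 1 higher without overlap (12.1% and 11.4% of all tested genes) and a median of −0.78. The summed level of the list overlapped between the classes, at 1106, 1067 and 881 CPM against 2028, 1823 and 1023 CPM. Oasl1, an antiviral gene, stood at 4.56, 5.16 and 2.16 CPM against 45.0, 35.3 and 19.5 CPM (log2 difference −3.07, SE 0.45, adjusted p = 0.0579). Genes of MHC class I presentation had 14 of 16 negative values and a median of −0.46, with 0 passing, 5 lower and 0 higher without overlap. The integrated stress response and serine synthesis list had 16 of 17 positive values and a median of 0.47, with Cebpb at 1.09 (SE 0.38, adjusted p = 0.231). In that list 0 passed, and 2 were higher and 0 lower without overlap. Over all 12348 tested genes, 6518 had a positive log2 difference. Notch pathway genes, MYC targets and genes of DNA replication had medians of 0.20, 0.15 and 0.03, with 0 passing in each. In all, 4 of the 40 lists held a gene that passed: Armcx1 and Armcx4, Cdkn2c, Pcdh7 and Malt1. The members' differences are in the plot of gene lists.

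**Figure D4:**
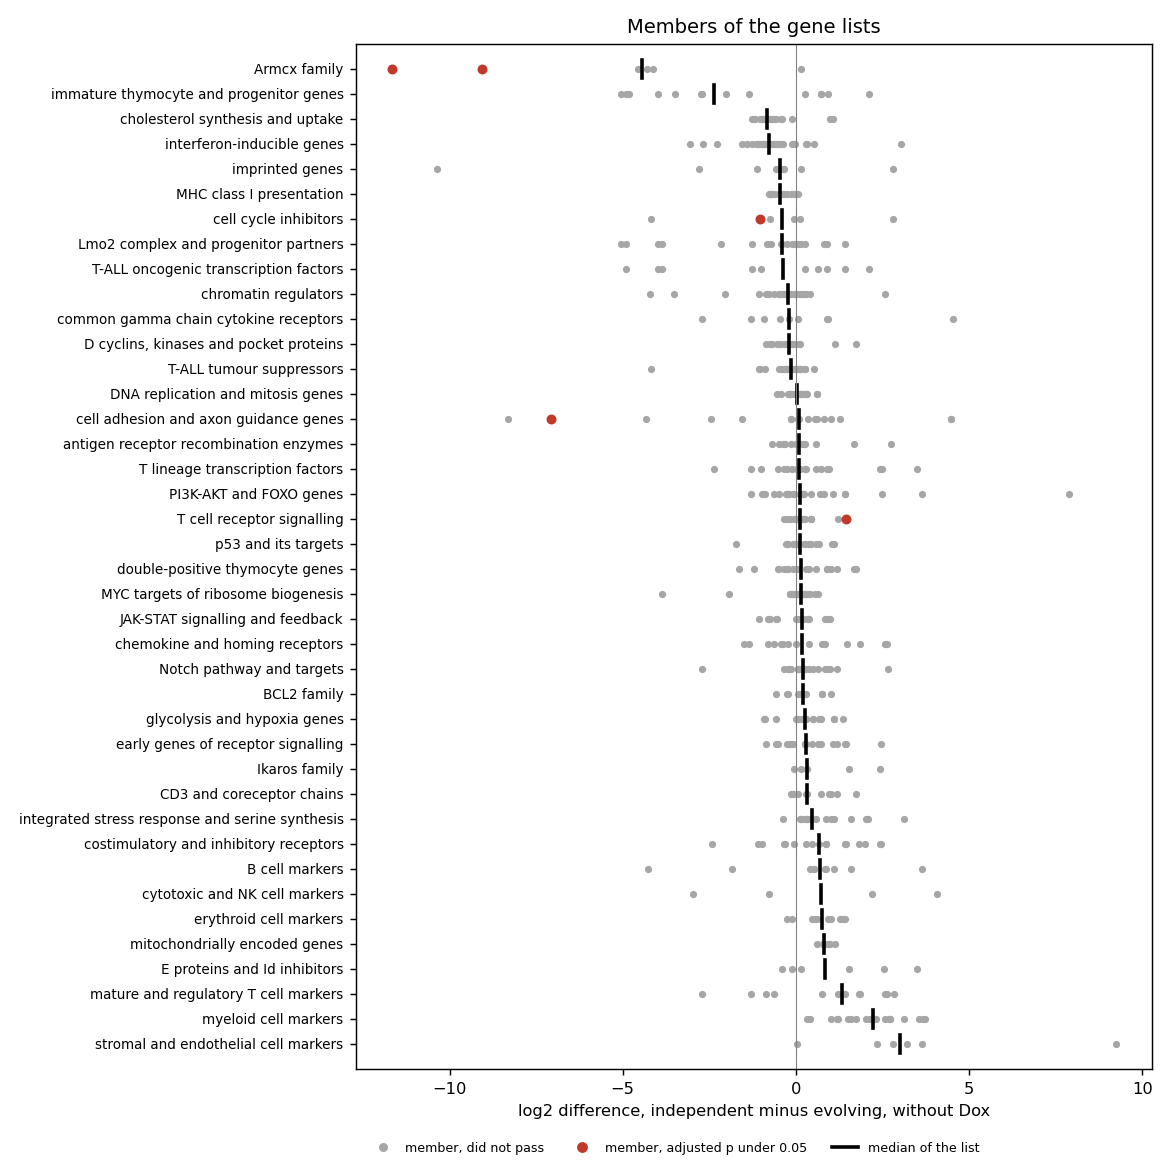
Log2 difference, independent minus evolving, of each measured member of the 40 lists (x axis), with red points for the 5 members that passed and a bar at the median of each list. The Armcx family and the progenitor genes lie farthest to the left, with medians of −4.43 and −2.36, and the stromal and myeloid markers farthest to the right, with 2.998 and 2.24.

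Markers of other cell types were measured as whole lists. Myeloid markers summed to 124, 2441 and 333 CPM in the independent libraries and to 314, 368 and 31.5 CPM in the evolving libraries, so that VTL-44 stood far above and the other independent libraries within the evolving range. All 23 members had a positive log2 difference, 7 without overlap (11.4% of all tested genes) and 0 passing, with a median of 2.24. S100a9, a neutrophil gene, had 609 CPM in VTL-44, and the macrophage gene C1qc 24.97 CPM there against 2.52 and 4.79 CPM in VTL-33 and VTL-81 and at most 1.30 CPM in the evolving class. Without VTL-44, 30 of the 32 genes passed. That fit does not test the part of myeloid RNA, since VTL-33 and VTL-81 also had more C1qc than the evolving libraries. B cell markers summed to 493 to 915 CPM and 220 to 641 CPM, and erythroid markers to 306 to 395 CPM and 222 to 337 CPM. Both lists overlapped between the classes. The 4 measured cytotoxic markers summed to 861, 79.6 and 805 CPM against 100.8 to 225 CPM, nearly all of it Gzma, a granzyme, whose log2 difference of 2.18 (SE 0.83) had an adjusted p of 0.260. Mature and regulatory T cell markers summed to 644 to 1215 CPM against 1814 to 2318 CPM, a list that also holds Il2ra. By member the list went the other way, with 8 of 12 positive, 3 higher and 1 lower without overlap, 0 passing and a median of 1.32. Whether cells of the recipient were left after the sort for CD45.1 and CD45.2, and the part of these cell types in the differences, was not tested.

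**Figure D5:**
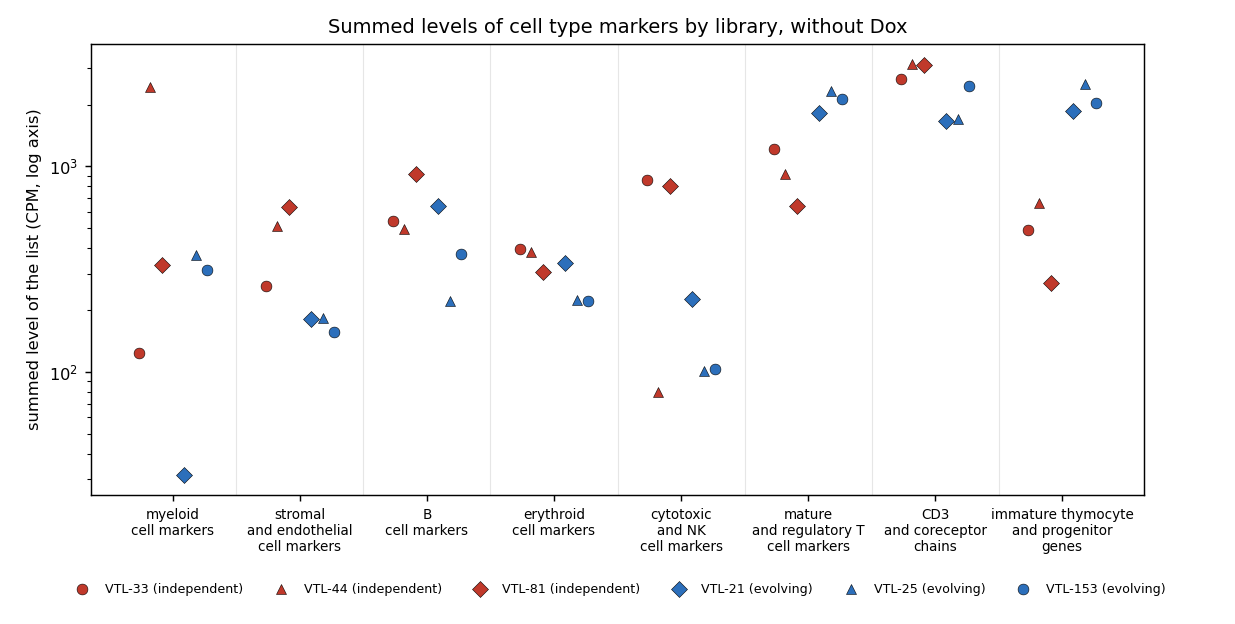
Summed level of each marker list in the 6 libraries (CPM, log axis), with 1 point per library, red for independent and blue for evolving. VTL-44 stands alone in the myeloid list at 2441 CPM, and the immature thymocyte list is at most 665 CPM in the independent and at least 1868 CPM in the evolving class.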

How the data were processed

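RNA-seq of sorted leukaemia cells was analysed from the gene counts that the authors deposited, which are whole, unnormalised reads per gene for 14 libraries. The submitters' processing notes name STAR 2.5.2b, featureCounts and the mm10 build. The strand setting and the filter that left 12421 genes were not given in the sources used here, and every gene has at least 1 CPM in 2 or more libraries. Another 42 columns of per-sample values were not used. Of the gene IDs, 12379 are in GENCODE M21, 11856 of them with the same symbol.

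The counts of the 8 libraries without Dox were fitted with edgeR 4.0.16 (TMM factors, filterByExpr at a minimum count of 10, robust quasi-likelihood F test, R 4.3.3), with 1 mean per class. The contrast was independent minus evolving, with Benjamini-Hochberg adjustment over 12348 tested genes and a threshold of 0.05. Standard errors are the absolute log2 difference divided by the square root of F. Folds compare pooled levels, which are the summed counts of a class over its summed library sizes, scaled by the normalisation factors. CPM use TMM factors over all 14 libraries and are not scaled for gene length, so levels are compared between libraries and not between genes. DESeq2 1.42.0, limma 3.58.1 (voom), other filters and factors, and leaving out each library served as alternatives. The model was tested on simulated data, where edgeR recovered 11% of 2-fold and 74% of 8-fold changes and called 11 unchanged genes. DESeq2 recovered 30% and 87% and called 70 unchanged genes, and limma voom 8% and 68% with 8. A gene that did not pass may thus still differ.

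Named genes are Lmo2 and Ikzf1, then in each direction the 8 called genes with the largest difference and the 8 with the smallest p among those without overlap and with an average log2 CPM of at least 2, without receptor segments, predicted genes and pseudogenes. From each of 40 gene lists up to 4 called members are named, or else 2 with the smallest p. The other called genes are named so that all 32 are accounted for, and Il2ra, S100a9, Xist, Ddx3y and the neighbours of the Armcx cluster were named after their values were seen. The members and lists were chosen with earlier results of these data known. No leukaemia is in both classes, so replicate numbers do not pair these libraries.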

Additional observations from a re-analysis of the deposited data

How the results depend on the processing

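The 32 called genes kept their direction in all 18 alternative fits that gave them a value. Their number moved with the tool and the libraries: 1068 genes passed by DESeq2, 7 by limma voom and 3 with VTL-153 and VTL-25 summed as 1 sample, and leaving out 1 library gave 3 to 144. Fitting all 14 libraries with the tumour as a replicate block, by limma voom with an estimated correlation of 0.29, called 40 genes, 12 of them among the 32. The 12 were Armcx1, Armcx4, Sytl2, Enpp4, Npc1, Atp13a2, Tespa1, Adck1, Malt1, Arhgef3, Mtx3 and Timp2. Foxb1 was not among them (adjusted p = 0.117 in that fit). The same fit put Lmo2 at −3.15 with an adjusted p of 0.276. With only the 6 libraries of the 2 classes 32 genes passed, of which 19 were shared. Leaving out 1 library gave −0.023 to 0.36 for Ikzf1, negative without VTL-33. The same range was −0.30 to 0.70 for Ikzf2, −0.13 to 0.026 for Ikzf5 and −0.012 to 0.43 for Armcx5, with a changed sign without VTL-33, VTL-25 and VTL-21 respectively. The cause of these changes was not tested. Genes with few counts in 1 class, such as Fat4 with 4 counts, have folds limited by depth.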

Other observations

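Genes on in every library of one class and off in the other were listed after the values were seen, as at least 5 CPM in all 3 libraries of one class and below 0.5 CPM in all 3 of the other. By this measure 15 of the 12421 genes were on in the evolving class, 7 of which had passed the test, and 4 were on in the independent class, 1 of which had passed. Gria2, a glutamate receptor subunit, was at 0 CPM in all 3 independent libraries and at 10.2, 13.7 and 41.2 CPM in the evolving libraries. Yap1, the coactivator of the Hippo pathway, stood at 0, 0.348 and 0.216 CPM in the independent libraries against 21.8, 25.6 and 48.1 CPM. Rgma, a guidance molecule that binds neogenin, was on in the independent class, at 23.3, 48.4 and 9.31 CPM against at most 0.0801 CPM. Gria2, Yap1 and Rgma did not pass the test (adjusted p = 0.206, 0.149 and 0.1002 by edgeR). The dependent VTL-19 and VTL-24 had 51.6 and 0 CPM of Gria2, and 96.1 and 0.234 CPM of Yap1. Of Rgma they had 4.73 and 0 CPM.

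Some of the 32 called genes neighbour each other, also listed after the values were seen. Npc1 and Osbpl1a lie 519 kb apart with 0 tested genes between them, and both were lower in the independent class. Armcx4 and Armcx1 lie 21.2 kb apart. Between Mtx3 and Zbed3, which lie 2.47 Mb apart and were both higher, 11 tested genes had a median log2 difference of 0.03 and 0 were called.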
